A study of Rattus norvegicus with 18 samples.

Results

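The 10 core clock genes Arntl (also called Bmal1), Clock, Npas2, Per1, Per2, Per3, Nr1d1, Nr1d2, Dbp and Tef were followed through knee synovium of rats with adjuvant-induced arthritis (AIA), a model in which an adjuvant injection provokes inflammation of the joints. They were chosen by name, as every gene probe of the array whose gene name in the scanner files is 1 of the 10. This gave 13 of 41012 probes, of which 12 were bright enough to be tested, and all 10 genes were among the 23598 genes tested. Total RNA of knee synovial tissue from male Lewis rats was hybridised to 1-colour Agilent arrays, with 3 arrays in each of 6 groups. The groups were normal control rats, rats with AIA, AIA-cold and AIA-hot rats (arthritis models named for the cold and hot syndromes of Chinese medicine), and AIA-cold-WTD and AIA-hot-WTD rats, which carried those models and received WTD, the classic herbal formula of the series title. The rats were 6 to 8 weeks old, weighed 200 ± 20 g and lived in a 12-hour light/dark cycle. How the cold and hot models were made, the dose of WTD and the hour at which tissue was taken are not given in the sources used here. The titles of the treated arrays carry letter codes that differ within a group (G or Z in AIA-cold-WTD, D, G or Z in AIA-hot-WTD) and that the sources used here do not explain, and these arrays are taken as replicates by their group label. The array titles do not say whether the 3 arrays of a group came from 3 rats, so p-values measure the spread between these arrays, which may be technical.

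The mammalian clock is a loop of transcription. ARNTL pairs with CLOCK, or with its relative NPAS2, and the pair switches on genes that carry E-boxes, among them the Per genes, the nuclear receptor genes Nr1d1 and Nr1d2 (REV-ERB alpha and beta) and the genes of the PAR bZIP factors DBP and TEF. PER proteins, with cryptochromes, shut the pair off, while the REV-ERB proteins repress Arntl through response elements (ROREs) that they share with the ROR activators. In tissues whose clocks run in step, Arntl transcript is therefore high when Dbp and Nr1d1 are low and low when they are high, and DBP and TEF pass the rhythm on through D-boxes. Joint tissue, cartilage and synovial fibroblasts have such clocks, and inflammation in arthritis is known to vary over the day.

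The promoters below show where these elements lie in the letters just before the start of 4 of the genes. Each is the 250 bases upstream of the RefSeq transcript start in rat assembly GRCr8, with a found element in capitals. The searched letters were CACGTG for the E-box, CACGTT for its E-prime variant, TTATGTAA or TTACGTAA for the D-box and TAGGTCA or TGGGTCA for the RORE, on both strands. Arntl carries a RORE 16 bases before its start, Nr1d1 and Tef each carry an E-box 191 and 198 bases before theirs, and Per2 carries a D-box 192 and an E-prime box 62 bases before its start.
Arntl, chr1:176766078-176766327, plus strand: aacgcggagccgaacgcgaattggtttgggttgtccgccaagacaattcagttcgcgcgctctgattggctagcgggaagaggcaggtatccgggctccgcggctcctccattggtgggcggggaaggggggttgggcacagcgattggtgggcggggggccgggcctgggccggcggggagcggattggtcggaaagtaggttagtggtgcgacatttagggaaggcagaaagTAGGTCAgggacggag
Nr1d1, chr10:84229455-84229704, minus strand: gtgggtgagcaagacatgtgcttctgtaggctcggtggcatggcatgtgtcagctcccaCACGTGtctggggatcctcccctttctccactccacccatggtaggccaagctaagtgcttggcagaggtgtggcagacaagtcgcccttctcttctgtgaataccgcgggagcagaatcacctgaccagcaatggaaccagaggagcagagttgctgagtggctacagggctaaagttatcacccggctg
Tef, chr7:115206577-115206826, plus strand: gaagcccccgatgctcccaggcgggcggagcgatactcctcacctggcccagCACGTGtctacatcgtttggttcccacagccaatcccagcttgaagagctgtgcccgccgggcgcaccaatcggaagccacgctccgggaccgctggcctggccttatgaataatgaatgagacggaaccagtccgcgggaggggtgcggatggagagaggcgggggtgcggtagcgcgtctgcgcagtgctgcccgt
Per2, chr9:99496994-99497243, minus strand: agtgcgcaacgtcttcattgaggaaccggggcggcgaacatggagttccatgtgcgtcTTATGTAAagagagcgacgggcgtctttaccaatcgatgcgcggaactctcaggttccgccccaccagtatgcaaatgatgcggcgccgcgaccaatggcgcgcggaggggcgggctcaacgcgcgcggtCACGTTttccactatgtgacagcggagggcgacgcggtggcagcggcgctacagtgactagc
Of 33469 rat promoters of the same length, 5.59% held the E-box letters, 4.07% the E-prime letters, 0.932% the D-box letters and 5.62% the RORE letters, so matches to the short elements were common. A second listed start of Nr1d1 had an E-prime match, and the windows of Clock, Npas2, Per1, Per3, Nr1d2 and Dbp held none of these letters. The letters of a cyclic AMP response element (TGACGTCA, in 1.59% of promoters) and of a glucocorticoid response element (in 0.012%) were in no window of the 10 genes. A match is a description of letters and not a measured binding site.

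The levels below are log2 intensities minus the 75th percentile of the gene probes of the same array, so that 0 is a probe as bright as that percentile and a step of 1 is a doubling. Levels are compared only within a probe. On 17 arrays that percentile lay between 201.4 and 331.0 intensity units, and 56.3% to 76.5% of probes were well above background. On control replicate 1 it was 68.9 units and 43.3%, and the mean of its cartilage markers was 4.52, against -1.89 to 1.41 on the other 17 arrays, so clock gene differences from control that moved by over 1.5 times without that array are also given without it. The arrays lay on 5 slides of 4 or fewer of these samples, and the 2 cold groups shared no slide with the other 4 groups. For either cold group against any of those 4, AIA-hot included, the slide and the group therefore cannot be told apart. The 10 markers of synovial fibroblasts and lining cells all passed the filter on dim probes, with group means from 3.96 to 4.34. In whole tissue, fewer cells of a type and less RNA per cell cannot be told apart.

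Across the 6 groups, no clock gene changed beyond the spread between arrays by the test over all genes. In limma's moderated F test with Benjamini-Hochberg adjustment over all 23597 genes with a value, 0 of the 10 passed an adjusted p of 0.05, beside 0.0297% of all genes, and 1 of the 10 had an unadjusted p under 0.05, beside 10.8% of all genes. That gene was Per3, at an adjusted p of 0.197. In none of 11 comparisons between groups did a clock gene pass. Over all genes, the share that passed was 0.534% in AIA-cold, 0.0551% in AIA-hot, 0.0297% in AIA-cold-WTD and 0.0805% in AIA-hot-WTD against control, 0.00848% in AIA-cold against AIA-hot, the same 0.00848% in AIA-cold-WTD against AIA-cold, and 0% in the other 5. The differences are therefore given below as sizes with their errors. All come from that limma fit.

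**Figure D1:**
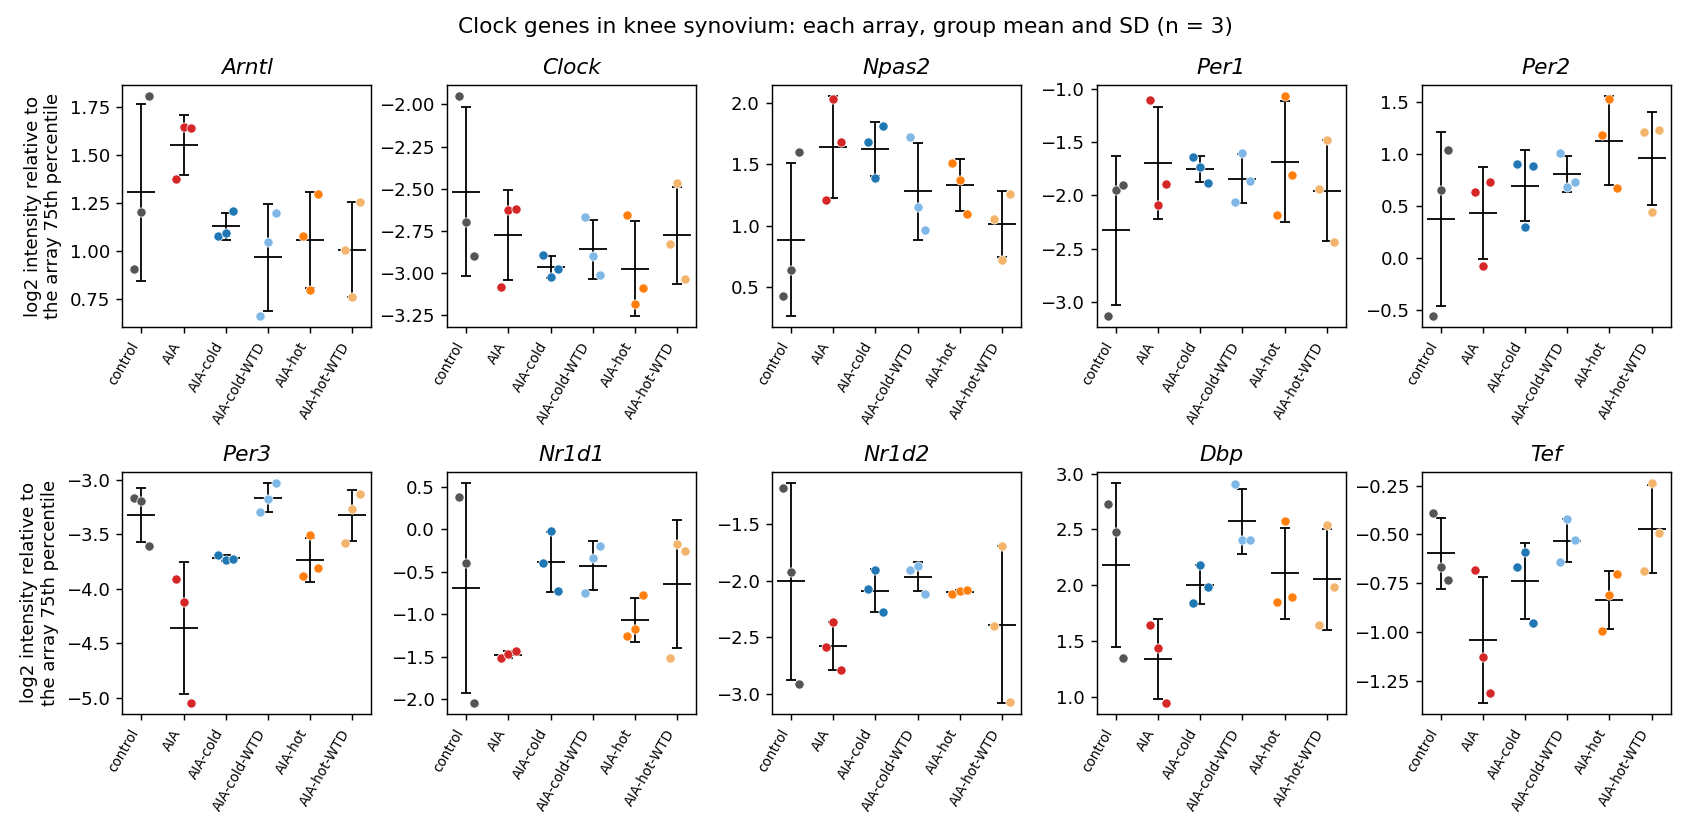
Level of each clock gene on each of the 18 arrays (log2 intensity relative to the 75th percentile of the array; the scale differs between panels). Points are arrays, coloured by group; horizontal marks and bars are the mean and SD of the 3 arrays. Control arrays spread widely for Nr1d1 (-2.05 to 0.38) and Dbp (1.34 to 2.73), and the AIA arrays lie low for Dbp, Nr1d1 and Per3.

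The activator Arntl was bright, and its 18 levels spanned 0.66 to 1.81, a 2.21-fold range. Its probe of 60 bases, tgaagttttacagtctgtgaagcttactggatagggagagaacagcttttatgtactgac, lies at chr1:171161969-171162028 (rn4, the build in the file headers). The levels were 0.90, 1.20 and 1.81 in control, 1.37, 1.64 and 1.64 in AIA, 1.08, 1.09 and 1.21 in AIA-cold, 0.66, 1.04 and 1.20 in AIA-cold-WTD, 1.08, 0.80 and 1.30 in AIA-hot, and 1.00, 0.76 and 1.25 in AIA-hot-WTD. All 3 AIA arrays lay above every array of the 4 groups with a cold or hot model, while the control arrays ran from below to above the AIA range. By mean, AIA stood first at 1.55 ± 0.16 (SD, n = 3), control second at 1.30 ± 0.46, then AIA-cold at 1.13 ± 0.07, AIA-hot at 1.06 ± 0.25, AIA-hot-WTD at 1.01 ± 0.25 and AIA-cold-WTD at 0.97 ± 0.28. No neighbours in that order differed by more than the larger of their SDs. Arntl was 0.49 ± 0.22 (SE) lower on the log2 scale in AIA-hot than in AIA, which did not pass (limma adjusted p = 0.878).

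Clock, the usual partner of ARNTL, spanned 1.23 log2 units, from -3.18 to -1.95 or 2.35-fold. Its highest level was on control replicate 1, where its probe was not well above background. The other 17 levels lay between -3.18 and -2.47. Npas2, which can replace CLOCK in the pair, was 0.43, 0.64 and 1.60 in control, 1.21, 2.04 and 1.68 in AIA and 1.68, 1.39 and 1.81 in AIA-cold. Control replicates 1 and 2 were the lowest arrays of all 18 for Npas2, and replicate 3 was within the AIA range. Npas2 was 0.75 ± 0.30 higher in AIA than in control (limma adjusted p = 0.757) and 0.74 ± 0.30 higher in AIA-cold (adjusted p = 0.203). Its second, dimmer probe, further upstream in the same transcript, gave 0.20 ± 0.21 and 0.07 ± 0.21 for these differences, and the 2 probes correlated at r = 0.72 over the arrays.

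Of the Per genes, the repressors of the loop, Per1 and Per2 had r = 0.44 with each other over the 18 arrays, and -0.17 and 0.01 with Per3. Per1 ran from -3.14 to -1.07 and Per2 from -0.56 to 1.53, and both had their lowest level on control replicate 1 and their highest on AIA-hot replicate 2. Per1 in control was -3.14, -1.95 and -1.91, below all 3 AIA-cold arrays at -1.64, -1.73 and -1.89. The control level of -3.14 was not well above background. The highest group mean of Per2 was in AIA-hot at 1.13 ± 0.43 and the lowest in control at 0.38 ± 0.84. That difference of 0.75 ± 0.37 did not pass (limma adjusted p = 0.435), and without control replicate 1 it was 0.28 ± 0.32.

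Per3, a PER with a minor part in keeping the loop running, had the smallest F test p of the 10 genes, and its probe stood well above background on 12 arrays, the fewest among the probes that stood for the 10 genes. Its levels were -3.16, -3.20 and -3.60 in control, -3.91, -4.12 and -5.05 in AIA, -3.69, -3.74 and -3.73 in AIA-cold, -3.30, -3.17 and -3.03 in AIA-cold-WTD, -3.88, -3.51 and -3.81 in AIA-hot, and -3.58, -3.26 and -3.13 in AIA-hot-WTD. The 3 AIA arrays were the lowest of all 18, and none of them was well above background. Per3 measured 1.04 ± 0.24 lower in AIA than in control (limma unadjusted p = 0.000644, adjusted p = 0.587). Because the AIA arrays give only a bound, set by the lowest signal well above background on each array, the supported difference is at least 1.045-fold over the 2 control arrays that were well above background. It is at least 1.10-fold over all 3 control arrays, of which replicate 1 was not. Per3 was 0.64 ± 0.24 higher in AIA-cold than in AIA (adjusted p = 0.443), 0.63 ± 0.24 higher in AIA-hot than in AIA (adjusted p = 0.878) and 0.55 ± 0.24 higher in AIA-cold-WTD than in AIA-cold (adjusted p = 0.779). No bound above 1 can be given for AIA-cold or AIA-hot against AIA, and with normexp background correction these 2 differences changed sign, to -0.08 and -0.05. They were 0.30 and 0.28 without AIA replicate 3, the lowest array.

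What Per3 was measured with limits these values. Of its 3 probes, the brightest was well above background on 12 arrays, another on 3 and the last on none, so that the last was not tested. The 2 tested probes overlap, with a shared run of 22 bases shown in capitals:
Brighter Per3 probe: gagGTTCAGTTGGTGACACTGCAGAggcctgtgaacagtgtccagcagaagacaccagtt
Dimmer Per3 probe: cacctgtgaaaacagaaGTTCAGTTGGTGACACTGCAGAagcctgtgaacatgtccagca
Over the 18 arrays the 2 probes correlated at r = 0.31. The dimmer probe was well above background only on the 3 arrays of AIA-cold-WTD. On these arrays 71.5%, 74.0% and 76.5% of all probes were well above background, the highest shares of the 18. The dimmer probe was brighter on control replicate 1 (-4.09) and AIA-hot replicate 1 (-4.06), but not well above background there. It gave -0.35 ± 0.40 for AIA against control and 0.37 ± 0.40 for AIA-cold-WTD against AIA-cold. Against AIA it gave 0.27 ± 0.40 for AIA-cold and 0.10 ± 0.40 for AIA-hot.

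The REV-ERB genes Nr1d1 and Nr1d2, repressors of Arntl, held the widest and some of the most uneven control values. Nr1d1 spanned 2.43 log2 units over the arrays, a 5.38-fold range and the largest of the 10 genes, and both ends of it were control arrays. It was 0.38, -0.40 and -2.05 in control, -1.52, -1.47 and -1.44 in AIA, -0.40, -0.02 and -0.73 in AIA-cold, -0.75, -0.34 and -0.19 in AIA-cold-WTD, -1.26, -1.17 and -0.77 in AIA-hot, and -1.52, -0.17 and -0.26 in AIA-hot-WTD. The AIA arrays lay within 0.08 of each other and below all arrays of AIA-cold, AIA-cold-WTD and AIA-hot. Nr1d1 was 1.09 ± 0.48 higher in AIA-cold than in AIA (limma adjusted p = 0.523), and all 3 AIA-cold arrays were also above all 3 AIA-hot arrays. Nr1d2 was -1.18, -1.93 and -2.92 in control and -2.58, -2.37 and -2.79 in AIA. Its AIA arrays lay below all 9 arrays of AIA-cold, AIA-cold-WTD and AIA-hot, which ran from -2.28 to -1.87, while AIA-hot-WTD spread from -3.07 to -1.69.

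Dbp, an output factor with a strong daily rhythm in many tissues, was bright on every array. Its probe, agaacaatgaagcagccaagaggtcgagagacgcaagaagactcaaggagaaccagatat, lies at chr1:96178020-96178079 (rn4). Dbp was 2.73, 2.47 and 1.34 in control, 1.64, 1.43 and 0.94 in AIA, 1.84, 2.18 and 1.99 in AIA-cold, 2.91, 2.41 and 2.41 in AIA-cold-WTD, 1.85, 2.58 and 1.89 in AIA-hot, and 1.64, 2.54 and 1.98 in AIA-hot-WTD. AIA held 2 of the 3 lowest levels together with control replicate 3, and AIA-cold-WTD had the highest mean at 2.57 ± 0.29, followed by control at 2.18 ± 0.74, AIA-hot at 2.10 ± 0.41, AIA-hot-WTD at 2.05 ± 0.45, AIA-cold at 2.00 ± 0.17 and AIA at 1.34 ± 0.36. Dbp was 0.85 ± 0.34 lower in AIA than in control (limma adjusted p = 0.757) and 0.77 ± 0.34 higher in AIA-hot than in AIA (adjusted p = 0.878). The AIA difference was 0.57 lower without control replicate 1 and 1.26 lower without control replicate 3. Tef, the second PAR bZIP factor, kept to a narrower range of -1.31 to -0.24. It was -0.39, -0.66 and -0.73 in control and -0.68, -1.13 and -1.31 in AIA, a difference of -0.44 ± 0.18 (adjusted p = 0.757).

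Seen gene by gene, AIA differed from control in a mixed direction, with 4 of the 10 genes higher and 6 lower and a median of -0.35, against -0.03 over all genes. Of the 10, 4 had an unadjusted limma p under 0.05 (Per3, Dbp and Tef lower, Npas2 higher), beside 6.28% of all genes. The groups did not overlap for 1 gene, Per3, beside 10.7% of all genes. Since no AIA array measured Per3 well above background, both counts include a gene known there only by a bound, and without it they were 3 and 0 of 9 genes. The count at an unadjusted limma p under 0.05 also hung on single arrays. It was 1 of 10 without control replicate 1 or without AIA replicate 3, and 7 of 10 without control replicate 3. On the slide that held all control arrays and AIA replicate 1, the AIA level was lower by 0.54 for Dbp and by 0.09 for Tef, and higher by 0.32 for Npas2. All 11 measured of 12 muscle genes were lower in AIA, with a median of -1.59, 0 of them called and 1 at an unadjusted limma p under 0.05, and their mean ran from -0.35 to 1.37 in control and from -2.74 to 0.00 in AIA. All 11 measured of 12 adipocyte genes were higher, with a median of 0.90 and 0 of them called, 0 also at an unadjusted p under 0.05. Their mean ran from 2.93 to 4.77 in control and from 4.64 to 5.29 in AIA. All 8 measured of 10 cartilage genes were lower, with a median of -1.82, 0 of them called or at an unadjusted limma p under 0.05. Their mean ran from -1.89 to 4.52 in control, highest on control replicate 1, and from -1.51 to -1.08 in AIA. Of 12 immediate early genes 11 were lower, 4 of them at an unadjusted limma p under 0.05 and 0 called. The part of these lists in the clock gene differences was not tested.

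In both models the same 5 clock genes had arrays wholly apart from AIA. In AIA-hot against AIA, Per3, Nr1d1, Nr1d2 and Dbp were higher and Arntl lower without overlap, which is 5 of 10 genes beside 9.91% of all genes, and 3 of the 10 (Per3, Dbp and Arntl) had an unadjusted limma p under 0.05, beside 5.13%. In AIA-cold against AIA the count was also 5 of 10, beside 24.2% of all genes, and 2 of the 10 (Per3 and Nr1d1) had an unadjusted p under 0.05, beside 9.04%. Per3 was not well above background on any AIA array or on AIA-hot replicates 1 and 2. Without it the groups did not overlap for 4 of 9 genes in each model, and 2 of 9 (Dbp and Arntl) in AIA-hot and 1 of 9 (Nr1d1) in AIA-cold had an unadjusted p under 0.05. Over all 10 genes, the count at an unadjusted limma p under 0.05 was 0 in both models without AIA replicate 3. In AIA-hot it was also 0 without AIA-hot replicate 2, and 4 without AIA replicate 1 or without AIA-hot replicate 3. The comparisons of AIA-hot and AIA-cold with AIA share the AIA arrays and so are not separate evidence. Nor are the genes in each count, since their levels moved together over the arrays. With Dbp, r was -0.84 for Arntl, 0.75 for Nr1d2 and 0.70 for Nr1d1. The median over the 10 genes was 0.31 in AIA-hot and 0.28 in AIA-cold, against -0.04 and -0.01 over all genes. On the slide that held 2 AIA and 2 AIA-hot arrays, Arntl was 0.70 lower and Dbp 1.02 higher in AIA-hot. Of the T and NK cell markers, 11 of 12 were also higher in AIA-hot, 6 of them without overlap, with a mean over 12 genes of -1.98 to -1.32 in AIA-hot against -2.59 to -2.44 in AIA. All 11 adipocyte genes were lower in AIA-hot, with a median of -0.89 and none without overlap. There, all 9 measured macrophage genes were higher (median 0.22) and all 8 endothelial genes lower (median -0.21), again none without overlap. In AIA-cold against AIA, all 8 measured cartilage genes were higher, with a median of 1.04 and 4 of them without overlap, beside 24.2% of all genes. Also higher were 9 of 9 macrophage genes, 2 of them without overlap, and 11 of 12 T and NK cell genes, 5 of them without overlap. Of 8 endothelial genes 7 were lower, 2 of them without overlap. None of these marker genes was called, and their part was not tested.

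Against control, AIA-cold differed in 1 of the 10 genes at an unadjusted limma p under 0.05 (Npas2), beside 18.7% of all genes, and did not overlap for 2 (Per1 higher, Per3 lower), beside 24.9%. It was also the comparison with most calls, 126 genes or 0.534% of those tested, none of them a clock gene. Of 12 glucocorticoid response genes, 8 were higher and 4 lower, 4 and 2 of them at an unadjusted p under 0.05, and 2 were called, both higher: Fkbp5, a glucocorticoid-induced co-chaperone, was 2.50 ± 0.35 higher (adjusted p = 0.0147) and Zbtb16 3.46 ± 0.45 higher (adjusted p = 0.0136). With slide as a random block limma called 0 genes in all, and these had adjusted p of 0.0814 and 0.0642. Per1, itself a glucocorticoid target in many tissues, was 0.58 higher there and did not pass, and it was 0.17 higher without control replicate 1. For AIA-hot against control, 0 of the 10 genes had an unadjusted p under 0.05, beside 12.1% of all genes, and 0 did not overlap, beside 13.1%. The 2 models differed from each other without overlap for 1 gene, Nr1d1, beside 15% of all genes, and no clock gene had an unadjusted p under 0.05, beside 5.48%.

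**Figure D2:**
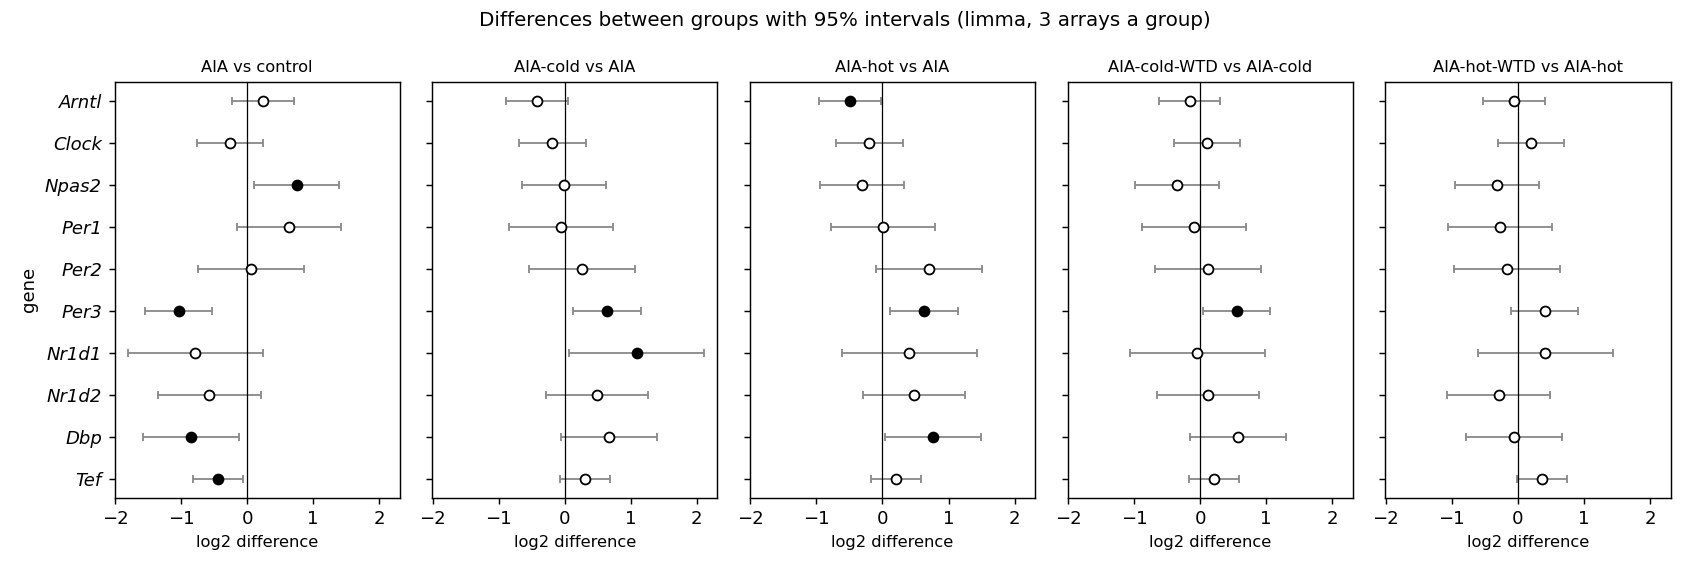
Log2 difference of each clock gene in 5 comparisons (horizontal axis, first group minus second), with the 95% interval from limma over 18 arrays. Filled points have an unadjusted p under 0.05 and open points do not; no point passed after adjustment over all genes. In the panels for AIA-cold and AIA-hot against AIA, Arntl lies left of 0 and Per3, Nr1d1, Nr1d2 and Dbp lie right of it.

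WTD was set against the untreated rats of the same model. In AIA-cold-WTD against AIA-cold, Per3 and Dbp did not overlap and were higher, which is 2 of 10 genes beside 14.4% of all genes. Dbp was 0.57 higher, with a 95% interval of -0.16 to 1.30, and 1 gene, Per3, had an unadjusted p under 0.05, beside 6.09%. On AIA-cold-WTD replicate 1, the one array of the group with the code G, the mean of the adipocyte genes was 2.08, against 5.14 and 5.00 on the other arrays, and that of the neutrophil genes -0.78, against 2.93 and 4.33. Without that array Dbp was 0.40 ± 0.38 and Per3 0.62 ± 0.27 higher than in AIA-cold (limma adjusted p = 0.833 and 0.470). That array was also the only one of its group on the slide of the AIA-cold arrays, where Dbp was 0.91 and Per3 0.42 higher. With it left out, slide and treatment cannot be told apart. In AIA-hot-WTD against AIA-hot, Tef did not overlap and was 0.36 higher, 1 of 10 genes beside 7.07%, and no clock gene had an unadjusted p under 0.05, beside 2.29%. The test of the difference between the 2 WTD effects gave no clock gene with an unadjusted p under 0.05, beside 4.19% of all genes, and its lowest adjusted p among the 10 was 0.988. Neutrophil markers had higher group means in the treated groups, with a mean per array over 6 of 10 genes of -0.78 to 4.33 in AIA-cold-WTD against -0.29 to 1.93 in AIA-cold, and of 1.24 to 4.22 in AIA-hot-WTD against -0.04 to 0.91 in AIA-hot. Their part was not tested. Against control, 0 of the 10 genes had an unadjusted p under 0.05 in AIA-cold-WTD or AIA-hot-WTD, beside 15.1% and 13.5% of all genes, and the groups overlapped for all 10, beside 16.3% and 18% of all genes without overlap.

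The clearest pattern of the clock genes was an opposition of Arntl and Dbp over the arrays, which the group means shared in part. AIA had the highest mean of Arntl (1.55) and the lowest of Dbp (1.34). AIA-cold-WTD had the lowest mean of Arntl (0.97) and the highest of Dbp (2.57), while control was second highest for both. Arrays high in Arntl were low in Dbp: over 18 arrays Pearson's r was -0.84 (permutation p = 3e-05, adjusted p = 0.00027 over 9 genes set against Arntl) and Spearman's rho was -0.75 (adjusted p = 0.0036). The permutations moved arrays freely across groups and slides, so the permutation p-values allow for neither. The relation was as strong within groups, at r = -0.85 for deviations from the group means, and within slides, at -0.89 for deviations from the slide means. It was -0.83 without control replicate 1, -0.85 over the 15 arrays without controls and -0.80 without the 2 arrays farthest from the Arntl median, control replicate 3 and AIA replicate 2. In 5 of the 6 groups the array lowest in Arntl was also the highest in Dbp. AIA-cold was the exception, where Arntl was 1.08 on replicate 1 and 1.09 on replicate 2, the array highest in Dbp.

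The control group shows the size of it. Control replicate 3 had the highest Arntl of all 18 arrays at 1.81, the lowest Nr1d1 at -2.05 and a Dbp of 1.34. Control replicates 1 and 2 had Arntl at 0.90 and 1.20, Nr1d1 at 0.38 and -0.40, and Dbp at 2.73 and 2.47. The same 3 arrays shared 1 slide. In AIA-hot-WTD, Arntl, Dbp and Nr1d1 were 0.76, 2.54 and -0.17 on replicate 2 and 1.00, 1.64 and -1.52 on replicate 1. Replicate 3 went against that order, with the highest Arntl at 1.25 but a Dbp of 1.98 and an Nr1d1 of -0.26.

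**Figure D3:**
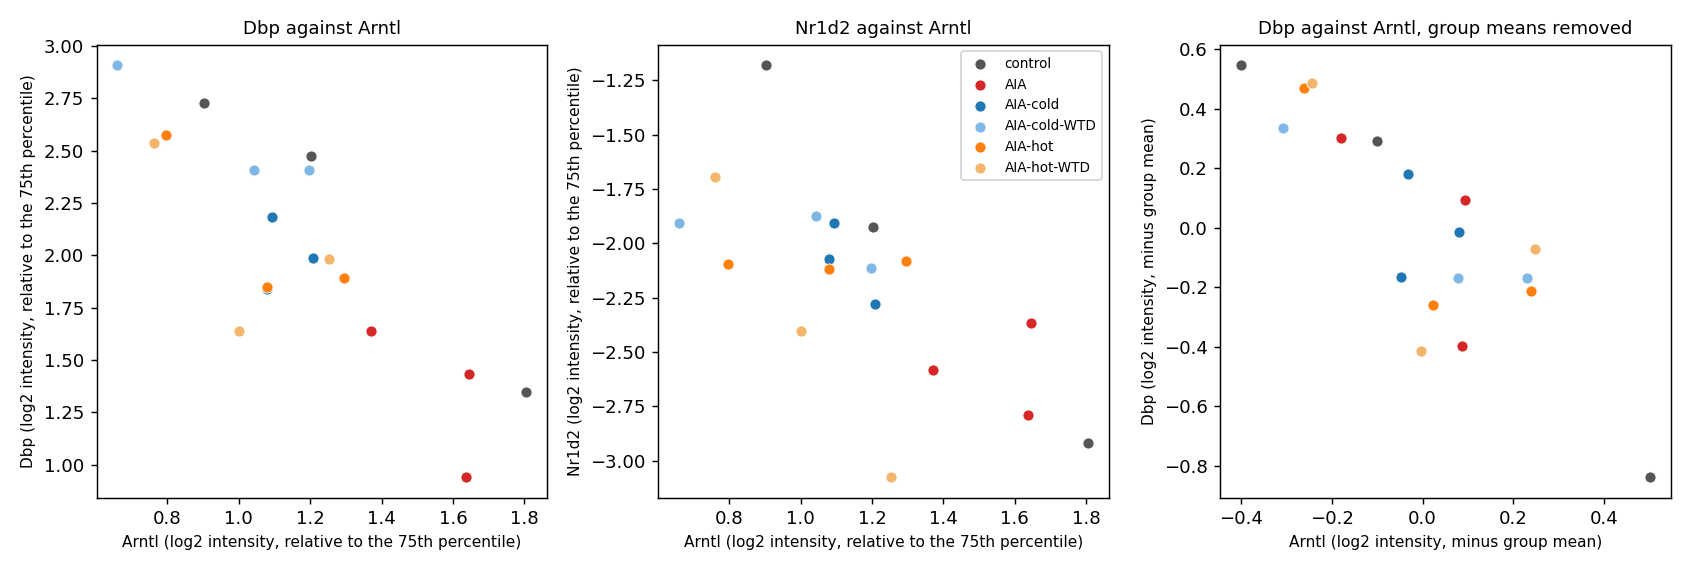
Dbp against Arntl (left), Nr1d2 against Arntl (middle) and Dbp against Arntl after subtracting each group's mean (right), 1 point per array, coloured by group, in log2 intensity. Points fall from upper left to lower right in each panel (r = -0.84, -0.69 and -0.85 over 18 arrays).

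Nr1d2 followed Dbp in this. Its r with Arntl was -0.69 (adjusted p = 0.00801) and its rho -0.71 (adjusted p = 0.00616), with -0.64 without the 2 farthest arrays, -0.78 within groups and -0.74 within slides. Per3, Nr1d1 and Tef had r of -0.56, -0.56 and -0.56 with Arntl, each at an adjusted p of 0.0301, and their rho had adjusted p of 0.0918, 0.0953 and 0.0918. Many other genes were as opposed to Arntl, with 124 genes at an r of -0.7 or lower. Counted from the most negative r among 23549 genes, Dbp ranked 6, Nr1d2 161, Per3 879, Tef 900 and Nr1d1 913. For Per3, 6 of the 18 levels behind it were not well above background. For Nr1d1 the relation rested on 2 arrays, since r was -0.30 without them. None of these 3 stayed under 0.05 when control replicate 1, AIA replicate 2, AIA replicate 3 or AIA-hot-WTD replicate 2 was left out, and Nr1d1 was also lost without control replicate 3, at -0.41. The remaining genes did not pass: r was 0.39 for Npas2, -0.18 for Clock, -0.09 for Per2 and -0.03 for Per1, with adjusted p from 0.167 to 0.903. Npas2 had r = 0.75 with Arntl within slides, and Clock -0.55 within groups.

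Ranked against every gene on the array, Arntl had the most negative correlation with Dbp of all 23549 genes with a value on every array. From the other end, Per3 ranked 5, Nr1d2 ranked 17, Nr1d1 ranked 41 and Tef ranked 62 by positive correlation with Dbp, at r = 0.79, 0.75, 0.70 and 0.68. Per1 and Per2 lay in the middle of the list at ranks 14403 and 14941. With deviations from group means, Arntl again had the most negative r, and Nr1d2 ranked 30, Nr1d1 129, Per3 203 and Tef 775. Without control replicate 1 the order began with Per3 at 7 and Nr1d2 at 50. With normexp correction Arntl ranked 3 from the negative end, and the dim genes Per3 and Nr1d2 fell to ranks 4102 and 2079, at r = 0.16 and 0.28. With median scaling Arntl ranked 77 from the negative end, at r = -0.58, and Per3 ranked 2. These correlations are a description over 18 arrays that share 5 slides.

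**Figure D4:**
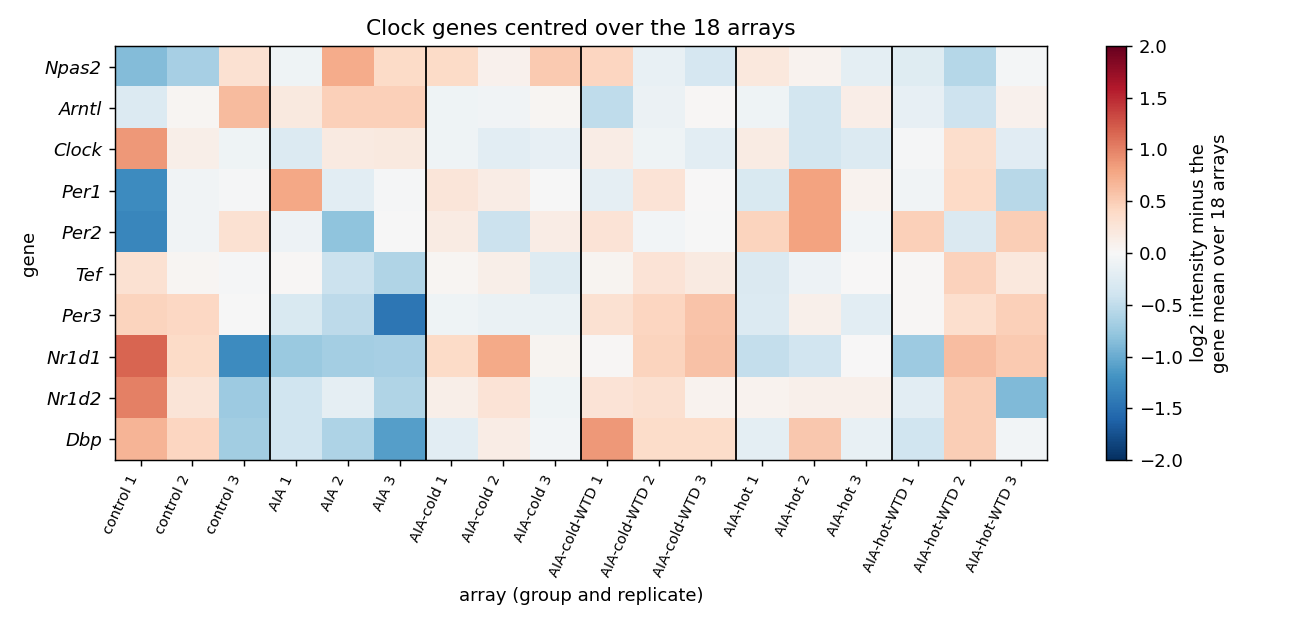
Clock genes (rows) on the 18 arrays (columns, by group and replicate), each gene centred on its mean over all arrays, in log2 units on a colour scale from -2 to 2. Arntl near the top and Dbp, Nr1d1 and Nr1d2 at the bottom take opposite colours on control replicate 3, on the AIA arrays and on AIA-hot-WTD replicate 2.

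Put as a single number per array, the mean of the 7 repressor and output genes minus the mean of the 3 activators, each gene centred over the arrays, was lowest in AIA. It was 0.24, 0.37 and -0.63 in control, -0.11, -0.96 and -0.98 in AIA, 0.02, 0.19 and -0.18 in AIA-cold, 0.21, 0.41 and 0.42 in AIA-cold-WTD, -0.24, 0.49 and 0.08 in AIA-hot, and 0.01, 0.57 and 0.09 in AIA-hot-WTD. AIA replicates 2 and 3 and control replicate 3 were the 3 lowest arrays, and AIA replicate 1 lay among the cold and hot arrays. All 3 AIA-cold-WTD arrays were above all 3 AIA-cold arrays. The score is a description of genes already chosen and carries no test.

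Neighbours were sought among 11938 genes outside the 10 members, with placeholder symbols (such as LOC or RGD numbers) left out. Unnamed genes with a stronger correlation can therefore be missing. Among those searched, the genes most like Arntl over the arrays were Map7d2 at r = 0.85, Lysmd2 at 0.83, Hmgn3 at 0.83, Scg3 at 0.81 and Nbea at 0.80. Those most opposed were B4galnt1 at -0.88, Rrm2 at -0.84, Arrdc2 at -0.84, Pla2g7 at -0.82 and Relt at -0.81. Those most like Dbp were Pole at 0.86, Sncaip at 0.80, Lyst at 0.79, Dbf4 at 0.77 and Rrm2 at 0.77. Pole, Dbf4 and Rrm2 encode a DNA polymerase subunit, an activator of replication origins and a subunit of ribonucleotide reductase. Per1 had other neighbours, led by Snrpd1 at 0.79 and Snrpc at 0.77, which encode spliceosomal proteins, and without control replicate 1 these fell to 0.61 and 0.53.

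Of 23 further genes of the clock pathway, 18 were measured, and 0 passed in any of the 11 comparisons or in the F test. In AIA against control 7 were higher and 11 lower, with a median of -0.07, and in AIA-cold against control 5 were higher and 13 lower, with a median of -0.08. Bhlhe41, an E-box repressor also called DEC2, had the smallest F test p among them (unadjusted p = 0.0311, limma adjusted p = 0.419), with a mean of 3.52 ± 0.18 in control, 2.98 ± 0.13 in AIA and 2.75 ± 0.13 in AIA-hot-WTD. Its relative Bhlhe40 (DEC1) was -0.02 ± 0.30 in control and -0.94 ± 0.26 in AIA-cold. Btrc, a ubiquitin ligase subunit that targets PER proteins, was -3.08 ± 0.72 in control and -4.15 ± 0.16 in AIA-cold, and Nampt, the NAD-synthesis enzyme under clock control, was 0.19 ± 0.25 and 1.14 ± 0.50. Cry1, the cryptochrome that peaks late in the loop, had r = 0.58 with Arntl and -0.66 with Dbp over the 18 arrays. Nfil3, the repressor that competes with DBP at D-boxes, had 0.55 and -0.72.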

How the data were processed

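The members and gene lists were chosen with earlier results of these data known. Per the submitters' processing notes, the authors used Agilent Feature Extraction 10.7 and limma (version not given there). The scanner files hold intensities that, per the file headers, the authors background-subtracted but did not scale between arrays. The authors' deposited series table holds log2 values of the same arrays and served as an alternative. Here each array's log2 processed intensity was reduced by its 75th percentile over gene probes, control and outlier spots were left out, spots of a probe were averaged, and a probe was kept if some group had it well above background on each of its 3 arrays (28259 of 41012). The brightest kept probe stood for a gene. limma 3.58.1 in R 4.3.3 fitted a mean per group over 18 arrays (12 residual degrees of freedom), with Benjamini-Hochberg adjustment over all genes and a call under 0.05. The fit was tested on simulated data. Correlations used 100000 permutations, two-sided (smallest possible p 1e-05), in SciPy 1.17.1. The number of arrays limits the precision. Named were all 10 members. Differences with an unadjusted p under 0.05 carry their SE, as do a few others chosen after their values were seen. Of the other pathway genes, the 4 with the smallest F test p were named, with Cry1 and Nfil3 chosen after their values were seen. The 5 genes most correlated with Arntl and Dbp were taken from genes whose symbol is not a placeholder. Promoters came from RefSeq (GRCr8) and matched all 10 genes by symbol. Alternatives were normexp, quantile and median scaling, the series table, other filters and probe rules, slide blocks, array weights, leaving out each array and, added after seeing the data, the number in the array title as a block.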

Additional observations from a re-analysis of the deposited data

How the results depend on the processing

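Chosen after seeing the data, the number in the array title was used as a replicate block over the 12 arrays without letter codes, in the 4 comparisons that share 2 numbers. With the replicate block 0 clock genes were called in each, and 0 genes in all in AIA against control, 3 in AIA-cold against control, 0 in AIA-cold against AIA and 1 in AIA-cold against AIA-hot (0, 126, 0 and 2 without it). The deviations from group means of the 10 same-number pairs correlated at -0.118 to 0.418, 5 of them over 0.1. Pairs with different numbers were not compared, so whether arrays with the same number share anything more cannot be told. The count of 0 clock genes called held in the 11 comparisons under every alternative run, and in the F test under all but array weights, which called 2 (Per3, adjusted p = 0.0129, and Tef, 0.0391) and gave control replicate 1 a weight of 0.0932. Counts over all genes moved far more: AIA-cold against control called 126 genes, and 0 to 4211 under the alternatives. Normexp correction turned the Per3 difference to -0.0763 in AIA-cold and -0.0493 in AIA-hot against AIA. The correlations of Arntl with Dbp (-0.89 to -0.58) and Nr1d2 (-0.75 to -0.62) kept their call in all 22 alternatives. With Npas2 it passed under normexp (0.541) and median scaling (0.618), and ran from 0.269 to 0.554 leaving out 1 array. With Per1 it was 0.0189 under quantile scaling, 0.403 under median scaling, 0.0300 in the series table and -0.245 to 0.117 leaving out 1 array. With Per2 it was 0.0691 under normexp, 0.356 under median scaling and -0.318 to 0.0743 leaving out 1 array. Per3 lost its call under quantile (-0.438) and median scaling (-0.218) and in the series table (-0.430), Nr1d1 under quantile (-0.532) and median scaling (-0.461), and Tef likewise (-0.533 and -0.0829). Leaving out 1 array gave -0.652 to -0.449 for Per3, -0.636 to -0.410 for Nr1d1 and -0.632 to -0.448 for Tef. The score of AIA-cold-WTD was 0.20 under normexp. The cause was not tested. Slide as a fixed block could be fitted only between groups whose slides connect.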
